A study of Mus musculus with 42 samples.

Results

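The semaphorins, a family of guidance ligands, and their plexin and neuropilin receptors were examined in developing cerebellar neurons of the mouse. Members were taken by name: 20 semaphorins, 9 plexins and 2 neuropilins whose symbols the array annotation assigns to at least 1 probe set, 31 genes of 18194 and 78 probe sets of 45101. Expression had been measured on Affymetrix MOE430.2 arrays in 2 neuron types of the cerebellar cortex, Purkinje cells, which carry its output, and Stellate/Basket cells, which are inhibitory interneurons of the molecular layer. Both populations came from male mice of the CB6-Tg(Gad1-EGFP)G42Zjh/J (G42) strain, per the labels, so all groups carry the Gad67-GFP transgene, which marks inhibitory neurons, and no group is a wild type control. GFP-bearing cells were picked by hand from protease-treated slices, with soma size as the second criterion. Arrays labelled Purkinje numbered 3 each at postnatal day 3 (P3), P7 and P14 and 4 at each later age (P21, P28, P35, P56). Stellate/Basket arrays numbered 4 for P14, 3 for P21, 4 for P28, and 2 each for P35 and P56, with no arrays at P3 or P7. The replicates are called biological in the labels.

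Semaphorins are secreted, membrane-spanning or lipid-anchored proteins that steer axons, dendrites and migrating cells. Plexins are their main signalling receptors, and neuropilins are co-receptors that most secreted class 3 semaphorins need to reach a plexin. In the cerebellum this system is known for guiding granule cell migration, for shaping basket cell axons around the Purkinje cell and for strengthening or removing climbing fibre synapses on Purkinje cells, in which Sema3a and Sema7a act as signals from the Purkinje cell.

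Values are log2 expression per probe set, as the authors deposited them, and each gene is represented by whichever of its probe sets was brightest on average. All differences below are on the log2 scale, given as Purkinje minus Stellate/Basket or as later minus earlier age, with the standard error of the limma fit. That fit uses 1 spread per gene, shared by all groups. A gene was called when its Benjamini-Hochberg adjusted p was under 0.05 over the 17478 genes tested and its difference was at least 1 in size. Of the 31 members, 30 passed the filter on dim genes. The exception was Sema3d, a secreted ligand whose group means lay between 4.66 and 4.89. The files carry no detection calls, and array medians ran from 5.91 to 6.16, so differences against groups near that level are uncertain in size. Members are not ranked by level, because values of different probe sets are not comparable. Where arrays of groups are said not to overlap, the share of all genes without overlap is not given.

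Some groups went against their labels in cell type markers, and every result that uses them is given with this in view. The 9 measured Stellate/Basket interneuron markers averaged 9.50 (range over arrays 9.48 to 9.52) in the arrays labelled Purkinje P3 and 9.37 (8.63 to 9.84) at P7, against 5.57 at Purkinje P14 and 9.86 in Stellate/Basket cells at P14. The 9 measured Purkinje markers averaged 8.05 (6.71 to 9.11) and 9.77 (9.14 to 10.3) in the same arrays and 13.1 at P14. Markers of Golgi and unipolar brush cells, other cerebellar interneurons, also stood higher there, at 8.40 and 8.37 against 6.16 at P14. The arrays labelled Stellate/Basket P56 departed in the other direction, with interneuron markers at 5.94 and Purkinje markers at 12.01. In them Kit, an interneuron receptor, averaged 6.11 against 10.5 at P14, and their correlation over probe sets, 0.853, was the lowest of all replicate pairs. In Stellate/Basket arrays the markers of astrocytes and Bergmann glia averaged 7.11, 9.19, 10.2, 9.36 and 10.6 from P14 through P56. Purkinje markers in these arrays went from 8.67 at P14 to 10.6 at P28. The granule cell list averaged 7.21 and 7.28 in arrays labelled Purkinje P3 and P7, and 6.14 to 6.44 in later Purkinje groups. In Stellate/Basket groups it averaged 6.99 to 7.56. Although all mice are labelled male, the X-inactivation RNA Xist ranged from 6.38 to 12.9 over arrays. Purkinje P14 arrays held 6.47 to 6.59 and Stellate/Basket P14 arrays 12.8 to 12.9. In bulk samples of this kind, fewer cells of a type and less RNA per cell cannot be told apart.

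**Figure D1:**
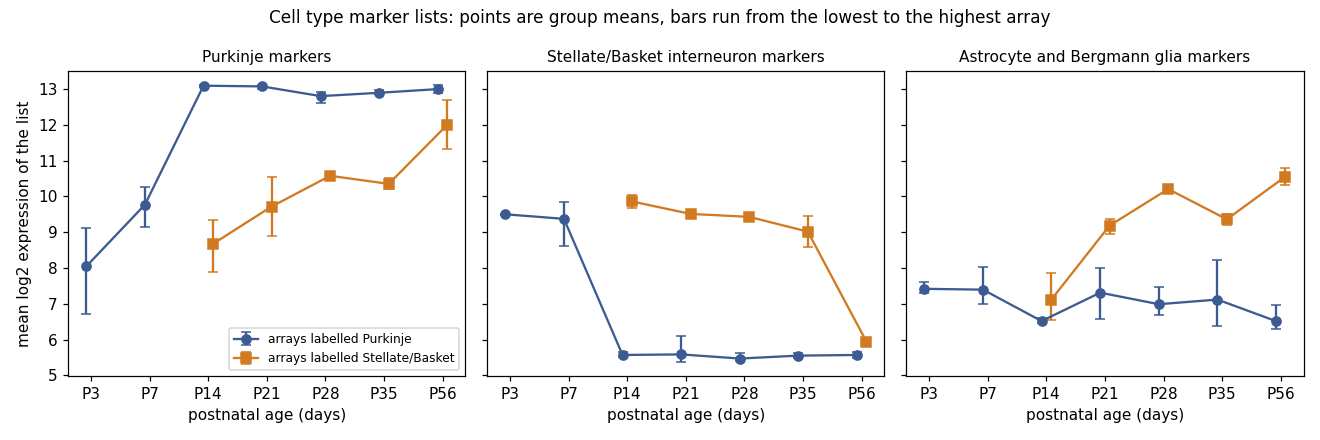
Mean log2 expression of 3 marker lists (y axis) by postnatal age (x axis) in arrays labelled Purkinje (circles) and Stellate/Basket (squares), where points are group means and bars run from the lowest to the highest array. The interneuron list stands at 9.50 in arrays labelled Purkinje P3 and at 5.94 in arrays labelled Stellate/Basket P56, and the glial list in Stellate/Basket arrays goes from 7.11 at P14 to 10.6 at P56.

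The first comparison asks which ligands and receptors distinguish the cell types at the 5 ages they share. Averaged over P14 to P56, Purkinje cells held more of the ligands Sema3a and Sema7a, while Stellate/Basket cells held more of the ligands Sema3e, Sema6d and Sema4a and of the receptors Plxnc1, Plxna2 and Plxnb2. These are 8 of 30 members, or 26.7%, against 11.5% of all genes tested. In Purkinje cells 2 were higher, or 6.67% against 6.37% of all genes, and 6 were lower, or 20% against 5.13%. The median member difference was -0.35, against 0.02 over all genes. No plexin and no neuropilin was called higher in Purkinje cells.

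Among the ligands, Sema3a encodes a secreted class 3 semaphorin that acts through Nrp1 and class A plexins. Its values in the 19 Purkinje arrays from P14 on ran from 8.81 to 10.57 with a median of 9.72, and in the 15 Stellate/Basket arrays from 7.00 to 7.79 with a median of 7.53. All Purkinje arrays stood above all Stellate/Basket arrays. The averaged difference was 2.16 ± 0.13, or 4.46-fold (adjusted p = 2.1e-15), and it lay between 2.15 and 2.56 at P14, P28, P35 and P56 and was 1.59 at P21.

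Sema7a encodes the lipid-anchored class 7 semaphorin, a ligand of Plxnc1 and of integrins. Purkinje arrays ran from 9.07 to 11.24 with a median of 10.53, and Stellate/Basket arrays from 6.61 to 9.45 with a median of 7.92. The cell types overlapped only through the Stellate/Basket P56 arrays, at 9.45 and 8.76, without which the highest Stellate/Basket value was 8.24. The averaged difference was 2.41 ± 0.14, or 5.31-fold (adjusted p = 1.5e-15), and 2.65 without P56.

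Sema3e encodes a secreted ligand that can bind Plxnd1 without a neuropilin, and it had the largest averaged difference of the members. Stellate/Basket arrays from P14 to P35 ran from 9.40 to 11.30 with a median of 10.76, and Purkinje arrays from P14 on from 6.32 to 7.79 with a median of 6.83. In the Stellate/Basket P56 arrays it stood at 6.58 and 6.88, within the Purkinje range. Purkinje cells were lower by an average difference of -3.07 ± 0.19, or 8.38-fold (adjusted p = 5.9e-15). Without P56 the difference was -3.90.

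Sema6d, a membrane-spanning ligand of class A plexins, differed by -2.46 ± 0.12 (5.52-fold, adjusted p = 2.7e-17), and by -2.10 without P56. This average joins unlike ages. At P14 the Purkinje values 7.17, 6.83 and 6.81 lay just under the Stellate/Basket values 7.80, 7.47, 7.60 and 7.26, and the difference of -0.60 ± 0.27 was not called (adjusted p = 0.11). At P28 the Stellate/Basket arrays held 10.36, 10.06, 10.82 and 10.68 and the Purkinje arrays 6.47, 5.83, 6.51 and 6.74. The P28 difference was -4.09 ± 0.25 (17-fold, adjusted p = 1.9e-14). Sema4a, a membrane-spanning class 4 ligand, was lower in every Purkinje array from P14 on (5.86 to 6.57) than in every Stellate/Basket array (6.64 to 8.48), by -1.37 ± 0.10 (adjusted p = 1.1e-13).

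**Figure D2:**
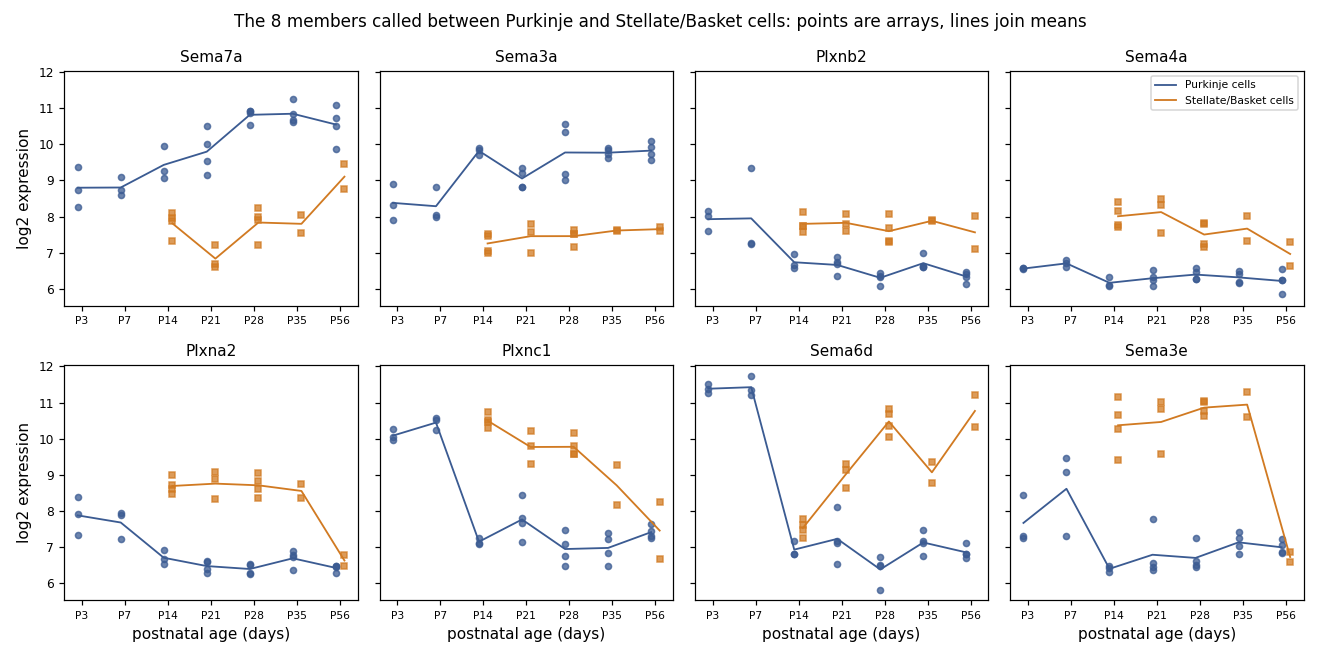
Log2 expression (y axis) by postnatal age (x axis) of the 8 members called in the averaged cell type difference, where points are arrays, circles and squares mark Purkinje and Stellate/Basket cells, and lines join the group means. Sema3a and Sema7a stand higher in Purkinje cells, and the other 6 members lower on average from P14 on. The means of Sema3e, Plxna2 and Plxnc1 come close together at P56, where the Stellate/Basket arrays hold interneuron markers at 5.94.

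Receptors leaned towards Stellate/Basket cells: 3 of the 9 plexins were called lower in Purkinje cells, and the remaining 6 had differences between -0.90 (Plxnd1) and -0.01 (Plxna4). Without P56 Plxna4 differed in the other direction, by 0.14 (adjusted p = 0.060). Plxnc1, the plexin that binds Sema7a, ran from 6.47 to 8.44 in Purkinje arrays from P14 on and from 8.16 to 10.74 in Stellate/Basket arrays from P14 to P35. The Stellate/Basket P56 arrays held 8.24 and 6.68. Its averaged difference was -1.99 ± 0.14 (3.97-fold, adjusted p = 1.2e-13), and -2.48 without P56. The receptor and its ligand Sema7a thus stood on opposite sides of this comparison.

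Plxna2, a class A plexin that binds Sema6a and serves class 3 ligands through neuropilins, ran from 6.25 to 6.94 in Purkinje arrays and from 8.33 to 9.07 in Stellate/Basket arrays from P14 to P35. These ranges did not overlap, and the Stellate/Basket P56 arrays, at 6.47 and 6.80, fell within the Purkinje range. The averaged difference was -1.73 ± 0.10 (3.31-fold, adjusted p = 2.7e-16), and -2.11 without P56. Plxnb2, a class B plexin for class 4 semaphorins that is needed by granule cell precursors, ran from 6.08 to 6.99 in Purkinje and from 7.11 to 8.13 in Stellate/Basket arrays at all 5 ages. It differed by -1.18 ± 0.14 (2.27-fold, adjusted p = 1.2e-08). Plxnd1, the receptor of Sema3e, also separated the arrays, at 5.37 to 6.12 and 6.15 to 7.89, but its difference of -0.90 ± 0.08 did not reach 1 (adjusted p = 3.7e-11).

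The neuropilins were not called in the averaged comparison. Nrp1, co-receptor of Sema3a, differed by -0.50 ± 0.20 (adjusted p = 0.034), but by -0.19 without P56 (adjusted p = 0.46) and by -0.20 without Stellate/Basket P56 replicate 1 (adjusted p = 0.29), which held 8.86 against 5.88 in the other P56 array. Nrp2, co-receptor of Sema3f, differed by -0.34 ± 0.08 (adjusted p = 0.00059). Sema3f itself differed by -0.12 ± 0.08 (adjusted p = 0.21), and in the other direction, by 0.36, without P56 (adjusted p = 0.00070). Of the 14 semaphorins not called, 6 had differences below 0, and the range was from -0.71 (Sema4c) to 0.48 (Sema4g). The 8 calls held when the P56 arrays were left out of the average. Of the 9 measured granule cell markers, 4 were called lower in Purkinje cells in the averaged comparison and 0 higher. How far the glial, granule cell, Purkinje and Xist levels that differ between the groups enter these differences was not tested beyond the alternatives given.

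**Figure D3:**
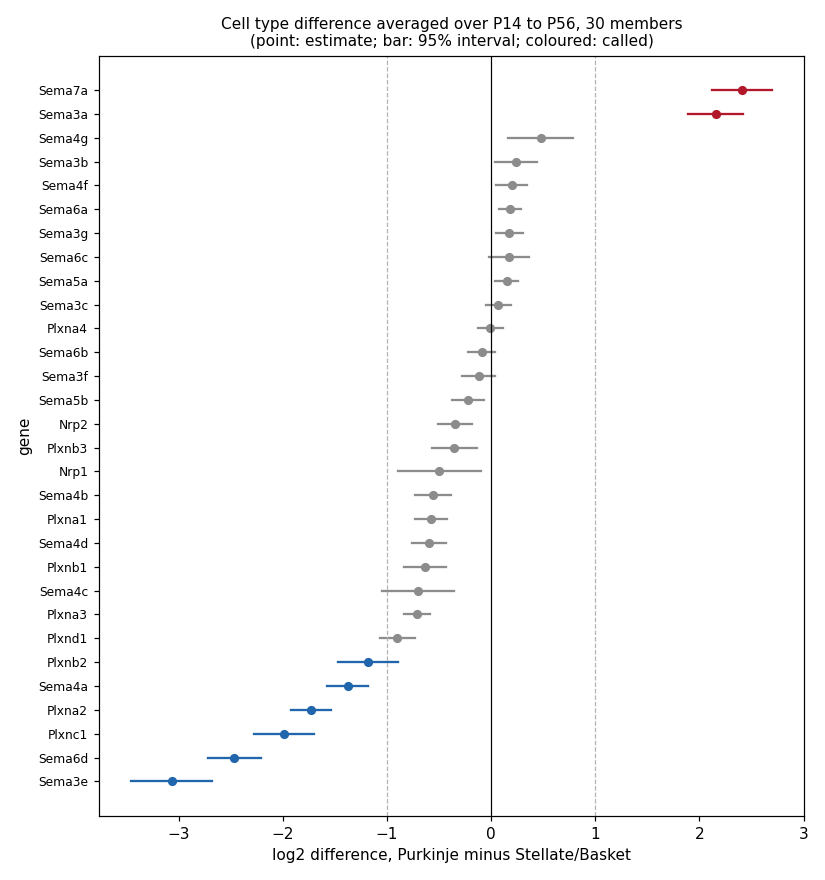
Averaged cell type difference of the 30 members tested (y axis) as log2 Purkinje minus Stellate/Basket (x axis), with points for the estimates, bars for 95% intervals, dashed lines at -1 and 1 and colour for called members. Sema7a (2.41) and Sema3a (2.16) lie on the right and Sema3e (-3.07), Sema6d (-2.46) and Plxnc1 (-1.99) on the left. No plexin lies right of 0, and Plxna4 lies nearest to it at -0.01.

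Probe sets of a gene did not always agree. Plxnb2 has 1 probe set, both probe sets of Sema4a were called lower in Purkinje cells, and so were 3 of the 4 of Plxna2. For Sema3a (1 of 3), Sema7a (1 of 2), Sema3e (1 of 4), Sema6d (1 of 4) and Plxnc1 (1 of 6), only the probe set shown was called, and the others differed by at most 0.83 in size. Plxnb1, a receptor for class 4 semaphorins, was not called in the averaged comparison through its brighter probe set (-0.64 ± 0.10). Its other probe set stood at 6.38 ± 0.15 (SD, n = 4) in Stellate/Basket cells at P14, 8.31 ± 0.66 (SD, n = 4) at P28 and 9.57 ± 0.61 (SD, n = 2) at P56, against 5.63 to 5.78 in Purkinje groups from P14 on, and was called at -2.07. A further probe set of Sema4f was called higher in Purkinje cells, at 1.59, where the one shown differed by 0.20. Which transcripts these probe sets read was not analysed here.

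The cell types were then compared at each age. At P14 10 members were called against 13.3% of all genes, 2 higher (background 6.59%) and 8 lower (6.73%). The additions to the averaged list were Plxnd1 (-1.55 ± 0.17), Sema4c (-1.16 ± 0.36) and Sema4b (-1.09 ± 0.18), and Sema6d was missing. Sema4b and Sema4c are membrane-spanning class 4 ligands. The Sema4c call was lost without Purkinje replicate 1 (adjusted p = 0.054) or 2 (adjusted p = 0.069) and without Stellate/Basket replicate 3 (-0.99). Without the latter array Sema4b (-0.98) and Plxnb2 (-0.95) also missed 1 in size, as Plxnb2 did without Purkinje replicate 1 (-0.98). At P21 and at P28 the members called were the 8 of the average, against 13.5% and 16.5% of all genes, with 2 higher (6.81% and 8.36%) and 6 lower (6.67% and 8.14%). At P35, with 2 Stellate/Basket arrays, 9 were called against 11.4%, the 8 and Sema4g, 3 of them higher (5.86%) and 6 lower (5.5%). Sema4g, a class 4 ligand, stood at 6.84 and 8.75 in those arrays and between 8.90 and 9.52 in Purkinje cells, and without the array at 6.84 its difference went from 1.35 to 0.39 (adjusted p = 0.64). The Plxnb2 call at P35 was lost without either Stellate/Basket array (adjusted p = 0.095 and 0.070), the Plxnc1 call without replicate 2 (-1.18, adjusted p = 0.054) and the Sema4a call without replicate 1 (-0.997).

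At P56 the list changed. Of 30 members 10 were called against 20.6% of all genes, 3 higher (14.8%) and 7 lower (5.82%), and Sema3e, Plxna2, Plxnc1 and Sema4a were no longer among them. Sema3e differed by 0.27 ± 0.47 (adjusted p = 0.66), Plxna2 by -0.20 ± 0.23 (adjusted p = 0.48) and Plxnc1 by -0.04 ± 0.34 (adjusted p = 0.93). Sema3f was now called lower in Purkinje cells, by -2.05 ± 0.19, with Purkinje values of 8.29, 8.48, 8.21 and 8.26 and Stellate/Basket values of 9.95 and 10.76. Plxnb1 (-1.69 ± 0.24), Nrp1 (-1.70 ± 0.48), Plxnd1 (-1.10 ± 0.20) and Sema6c (-1.01 ± 0.23), a membrane-spanning class 6 ligand, were also called. The 2 Stellate/Basket arrays disagreed for several of these, with Nrp1 at 8.86 and 5.88, Sema4g at 9.50 and 7.22 and Plxnb1 at 8.84 and 10.27. Without replicate 3 the count went from 10 to 5, with Sema4g, Sema7a (1.10, adjusted p = 0.077), Plxnb1, Plxnb2, Plxnd1 and Sema6c lost and Sema5b (-1.23) added. Without replicate 1 it was 12, with Nrp1 lost (-0.21) and Sema4a, Sema4b and Plxna3 added. Leaving out single Purkinje P56 arrays also took Sema4g (without replicate 2 or 4) and Sema6c (without replicate 1 or 4) below 1 in size and Sema4b above it (without replicate 2 or 3). Both arrays carry interneuron markers at 5.94, near the Purkinje P14 level of 5.57.

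**Figure D4:**
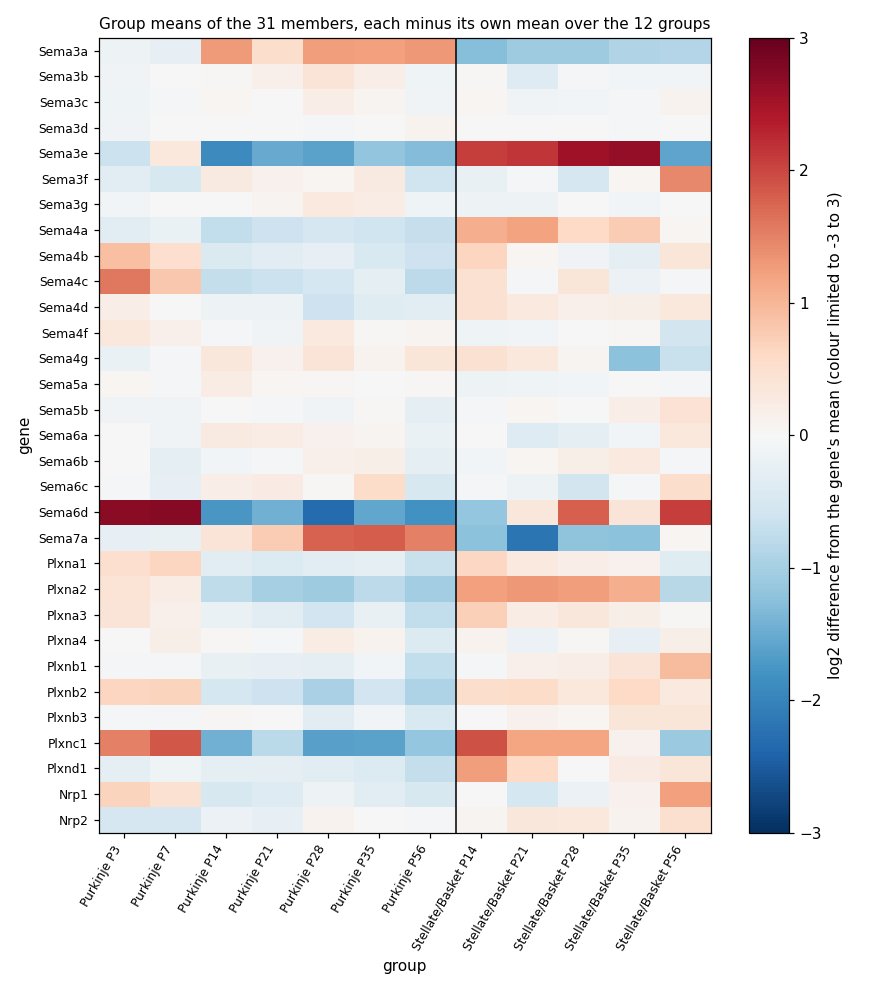
Group means of the 31 members (y axis) in the 12 groups of cell type and age (x axis), each shown as the log2 difference from the gene's own mean over the groups, with colour limited to -3 to 3. Sema6d and Plxnc1 are highest in the arrays labelled Purkinje P3 and P7 or in Stellate/Basket cells, and Sema3e drops between Stellate/Basket P35 and P56.

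The Purkinje series asks how the members change while Purkinje dendrites grow and climbing fibre inputs are refined. From P3 to P56, Sema3a and Sema7a rose and 9 members fell: Sema6d, Sema4b, Sema4c, Plxna1, Plxna2, Plxna3, Plxnb2, Plxnc1 and Nrp1. These are 11 of 30 members, or 36.7%, against 16.5% of all genes, with 6.67% rising against 8.71% and 30% falling against 7.81%. The median member change was -0.41, against -0.04 over all genes. Only the probe set shown was called this way for Sema3a (1 of 3), Sema7a (1 of 2), Sema6d (1 of 4), Sema4b (1 of 2, the other at 0.21), Plxna1 (1 of 2) and Plxna3 (1 of 2). More were called for Plxna2 (2 of 4), Plxnc1 (3 of 6) and Nrp1 (2 of 4), and Sema4c and Plxnb2 have 1. Of the members not called, Sema5a, Sema6a and Plxnb1 each had 1 other probe set called lower at P56. With the mean of a gene's probe sets in place of the brightest, 6 members were called, not 11: Sema3a, Sema4b, Plxna1, Plxna2, Plxna3 and Plxnc1 were lost and Plxnb1 (-1.08) was added. By class, 5 of 9 plexins fell and the other 4 had changes between -0.66 and -0.40, and 3 of 19 semaphorins and 1 of 2 neuropilins fell. Interneuron markers fell in the same arrays, 8 of 9 of them, and Purkinje markers rose, 9 of 9, and the part of this in the members' changes was not tested.

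Sema6d changed most. Arrays labelled Purkinje held 11.39, 11.26 and 11.51 at P3 and 11.74, 11.34 and 11.20 at P7, and 7.17, 6.83 and 6.81 at P14. At P56 they held 6.71, 6.80, 7.11 and 6.81, and no Purkinje array after P7 exceeded 8.11. It fell by -4.53 ± 0.27 from P3 to P56 (23-fold, adjusted p = 8.2e-15), nearly all of it between P7 and P14 (-4.49 ± 0.28, adjusted p = 9.2e-14). Stellate/Basket cells at P14 held 7.26 to 7.80 of Sema6d, and the values at P3 and P7 stood above both cell types at P14. There are no Stellate/Basket arrays at P3 or P7, and the part of other cells in these values was not tested.

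Plxnc1 went the same way, from 10.25, 10.51 and 10.58 at P7 to 7.25, 7.09 and 7.12 at P14, a change of -3.29 ± 0.32 (9.8-fold, adjusted p = 1.3e-09). The P7 values lay beside those of Stellate/Basket cells at P14, 10.46, 10.74, 10.29 and 10.51. Over P3 to P56 Plxnc1 went from 10.04, 9.96 and 10.26 to 7.64, 7.26, 7.32 and 7.46, by -2.67 ± 0.30 (adjusted p = 1.5e-08). Sema4c, a ligand of Plxnb2, went from 10.15, 9.18 and 9.07 at P3 to 7.24, 7.77, 7.07 and 6.27 at P56, by -2.38 ± 0.36 (adjusted p = 3.7e-06), and Plxnb2 from 8.02, 8.16 and 7.61 to 6.42, 6.48, 6.14 and 6.34, by -1.59 ± 0.30 (adjusted p = 8.0e-05). Ligand and receptor both fell, and whether their falls are linked was not tested. Sema3e stood at 7.32, 9.07 and 9.47 at P7 and 6.42, 6.32 and 6.48 at P14, a change of -2.21 ± 0.44 (adjusted p = 0.00025), but from P3 to P56 its change of -0.67 ± 0.41 was not called (adjusted p = 0.22).

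Sema4b, a membrane-spanning class 4 ligand, went from 7.17, 7.27 and 7.40 at P3 to 5.41, 6.10, 5.99 and 5.47 at P56, by -1.54 ± 0.18 (adjusted p = 3.0e-08). The class A plexins Plxna1 (-1.17 ± 0.16), Plxna2 (-1.45 ± 0.20) and Plxna3 (-1.14 ± 0.13), which carry class 3 and class 6 signals, fell from P3 to P56, while Plxna4 changed by -0.43 ± 0.13 and was not called. Plxna1 stood at 7.27, 7.56 and 7.69 at P3 and at 6.39, 6.58, 6.24 and 6.14 at P56. Plxna2 stood at 7.35, 8.38 and 7.92 at P3 and at 6.48, 6.49, 6.46 and 6.29 at P56. Plxna3 stood at 8.62, 8.33 and 8.21 at P3 and at 7.19, 7.35, 7.26 and 7.18 at P56. No P56 array reached the P3 values of Sema4b, Plxna1, Plxna2 or Plxna3. Overlap was looked at here in members already called, so it adds no separate evidence. Nrp1 went from 6.61, 6.59 and 7.24 at P3 to 5.49, 5.96, 5.79 and 5.42 at P56, again without overlap. It fell by -1.14 ± 0.42 (adjusted p = 0.034), and this call was lost when any of the P3 arrays was left out (adjusted p between 0.051 and 0.15) and without P56 replicate 1 or 4 (adjusted p = 0.070 and 0.079). In the opposite direction, Sema3a went from 8.82, 8.002 and 8.04 at P7 to 9.89, 9.71 and 9.85 at P14, by 1.53 ± 0.30 (2.89-fold, adjusted p = 0.00018), and no P7 array reached the P14 values. Over P3 to P56 it went from 8.31, 8.91 and 7.92 to 9.73, 10.08, 9.92 and 9.57, by 1.45 ± 0.28 (adjusted p = 1.0e-04). Sema7a went from 9.38, 8.27 and 8.74 at P3 to 10.74, 11.08, 10.51 and 9.86 at P56, by 1.75 ± 0.31 (adjusted p = 2.8e-05), and neither ligand overlapped between these ages. From P7 to P14, a step chosen because these arrays changed most there in earlier results, 6 members changed, 20% against 12.7% of all genes. Sema3a went upwards (background 5.79%) and Sema6d, Plxnc1, Sema3e, Sema4c and Plxnb2 downwards (6.95%). Only the probe set shown was called in this step for Sema3a (1 of 3), Sema6d (1 of 4) and Sema3e (1 of 4), against 3 of 6 for Plxnc1. The Sema4c and Plxnb2 calls in that step were lost without the P7 array that held 9.68 and 9.34 of them.

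**Figure D5:**
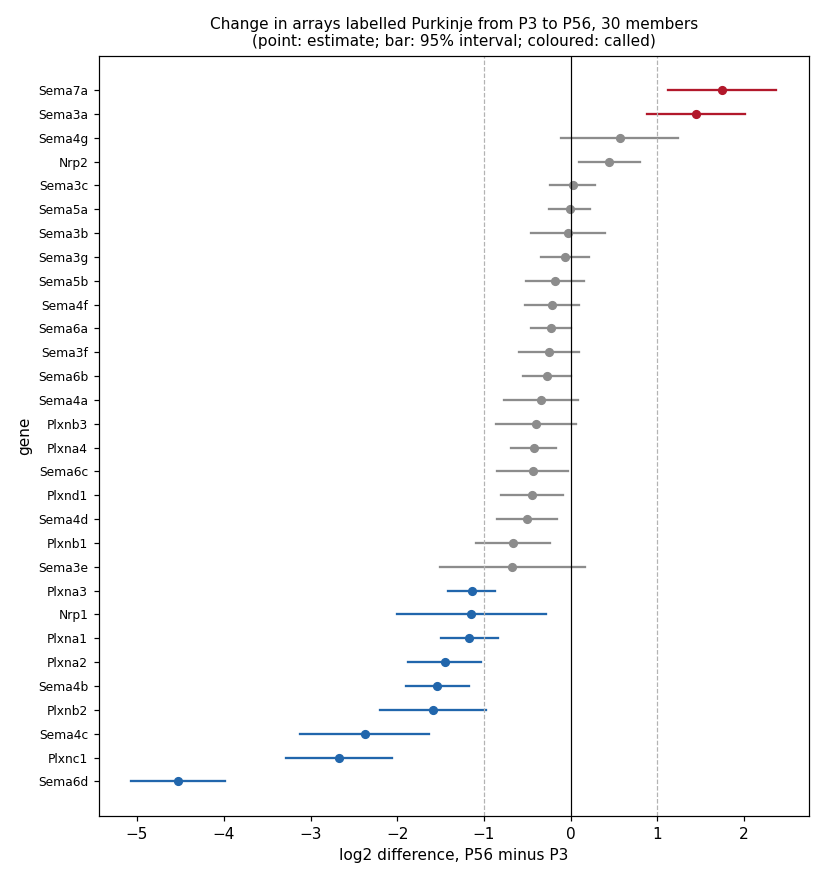
Change from P3 to P56 in arrays labelled Purkinje for the 30 members tested (y axis) on the log2 scale (x axis), with points for the estimates, bars for 95% intervals, dashed lines at -1 and 1 and colour for called members. Sema6d (-4.53), Plxnc1 (-2.67) and Sema4c (-2.38) lie far left, and Sema7a (1.75) and Sema3a (1.45) are the only called increases.

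After P14 few members were called in Purkinje cells. From P14 to P56 Sema7a alone was called, 3.33% of members against 1.69% of all genes in either direction, 1.3% upwards and 0.389% downwards. From P14 to P28 Sema7a was again the single call, against 1.23%, 0.584% upwards and 0.647% downwards. Sema7a arrays held 9.27, 9.95 and 9.07 at P14, 10.49, 9.14, 10.001 and 9.55 at P21 and 10.87, 10.53, 10.93 and 10.93 at P28, and between 9.86 and 11.24 later. The P28 arrays all stood above the P14 arrays. The rise was 1.38 ± 0.31 by P28 (2.61-fold, adjusted p = 0.0077) and 1.12 ± 0.31 by P56 (adjusted p = 0.014). Leaving out P14 replicate 3 ended both calls (adjusted p = 0.066 and 0.099), and the call by P56 also ended without P14 replicate 1 (1.04, adjusted p = 0.059) and without P56 replicate 2 (0.94). Over all 7 Purkinje ages the F test called 19 of 30 members, 63.3% against 56.3% of all genes.

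In Stellate/Basket cells the comparison of P14 with P28, the last age with 4 arrays, called 2 members, 6.67% against 5.21% of all genes, with 1 up (2.87%) and 1 down (2.33%). Sema6d rose, from 7.80, 7.47, 7.60 and 7.26 at P14 through 9.30, 9.13 and 8.63 at P21 to 10.36, 10.06, 10.82 and 10.68 at P28. The 3 ages did not overlap, and the rise was 2.95 ± 0.25 (7.71-fold, adjusted p = 1.9e-10). Only the Sema6d probe set shown was called this way (1 of 4), and the others changed by between -0.05 and 0.10. At P35 the probe set shown stood at 9.37 and 8.78, a fall of -1.41 ± 0.30 from P28 (adjusted p = 0.0097). The astrocyte and Bergmann glia list stood in these groups, in order of age through P56, at 7.11, 9.19, 10.2, 9.36 and 10.6, with 11 of 12 of its genes called higher at P28 than at P14, and its part in the Sema6d values was not tested. Plxnd1, the receptor for Sema3e, fell from 7.60, 6.97, 7.89 and 7.33 at P14 to 6.25, 6.17, 6.21 and 6.15 at P28, by -1.25 ± 0.16 (2.38-fold, adjusted p = 7.8e-07). Sema3e was not called over these ages and stood at 10.37 ± 0.74 (SD, n = 4) at P14 and 10.86 ± 0.21 (SD, n = 4) at P28. Some members not called through the brightest probe set had 1 other probe set called from P14 to P28. These were Sema4a and Plxnb1 upwards and Sema4f and Sema6a downwards.

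From P14 to P56 9 Stellate/Basket members were called, 30% against 18.7% of all genes, 4 higher (6.47%) and 5 lower (12.3%). Sema3e (-3.64 ± 0.47), Plxnc1 (-3.04 ± 0.34), Plxna2 (-2.06 ± 0.23), Sema4g and Sema4a fell, and Sema6d (3.24 ± 0.30), Sema3f (1.66 ± 0.19), Sema7a and Nrp1 rose. Among the falls, only the probe set shown was called for Sema3e (1 of 4), Plxnc1 (1 of 6) and Sema4a (1 of 2, the other at 0.07). Among the rises, this held for Sema6d (1 of 4), Sema3f (1 of 3) and Sema7a (1 of 2). More were called for Plxna2 (2 of 4) and Nrp1 (2 of 4), and Sema4g has 1. Single arrays decided 4 of these calls: Sema7a was lost without P56 replicate 1 (0.95), Sema4g without P56 replicate 3 (0.01), Nrp1 without P56 replicate 1 (-0.27) or P14 replicate 2 or 4, and Sema4a without P56 replicate 1 (-0.72) or P14 replicate 1 or 3. With P35 as the last age 4 members were called, a count for which the share of all genes is not given. Over these ages Sema3e changed by 0.57 (adjusted p = 0.49) and Plxna2 by -0.14 (adjusted p = 0.77). In the step from P35 to P56 6 members were called against 11.6% of all genes, among them Sema3e (-4.21 ± 0.54) and Plxna2 (-1.92 ± 0.27). In this step interneuron markers went from 9.02 to 5.94 and Purkinje markers from 10.35 to 12.01. The F test over the 5 Stellate/Basket ages called 15 of 30 members, 50% against 40.5% of all genes.

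Tested directly, the P14 to P28 change differed between the cell types for 3 members, 10% against 4.93% of all genes, with 2 positive differences (background 2.24%) and 1 negative (2.68%). Sema6d rose in Stellate/Basket cells and changed by -0.55 ± 0.27 in Purkinje cells, a difference of -3.49 ± 0.36 (adjusted p = 8.8e-08). Its Stellate/Basket rise was called in 1 of 4 probe sets, the one shown. Plxnd1 fell in Stellate/Basket cells and changed by -0.01 ± 0.17 in Purkinje cells, a difference of 1.24 ± 0.24 (adjusted p = 0.00084). Sema7a rose in Purkinje cells and changed by 0.02 ± 0.28 in Stellate/Basket cells, a difference of 1.36 ± 0.42 (adjusted p = 0.036). This last call was lost without any of 9 single arrays, Purkinje P14 replicates 1 and 3, Purkinje P28 replicates 1, 3 and 4, Stellate/Basket P14 replicates 1, 2 and 4 and Stellate/Basket P28 replicate 4, with adjusted p between 0.053 and 0.12.

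Genes that work with semaphorin receptors, a list of co-receptors, adhesion molecules, GTPases and cytoskeletal effectors, gave 2 higher and 6 lower in Purkinje cells among 49 measured of 53 in the averaged comparison, where 6.37% of all genes were higher and 5.13% lower. Their median was 0.04, against 0.02 over all genes. The largest called differences were Chl1 (-4.09 ± 0.18) and Enah (-3.39 ± 0.13), a neuropilin-linked adhesion molecule and an actin regulator, Dpysl3 (-1.83 ± 0.16), a collapsin response mediator, and Farp1 (-1.78 ± 0.16), a guanine nucleotide exchange factor linked to class A plexins. From P3 to P56 in Purkinje arrays 4 rose and 10 fell, where 8.71% of all genes rose and 7.81% fell, with a median of -0.285 against -0.04. Interneuron markers fell (8 of 9) and Purkinje markers rose (9 of 9) in the same arrays, and their part in the partners' changes was not tested. The largest were Dpysl3 (-6.29 ± 0.35), Chl1 (-5.95 ± 0.39), Dpysl4 (-3.36 ± 0.20), another collapsin response mediator, and Enah (-3.28 ± 0.28). The mediators pass on the growth cone response to Sema3a.

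Promoter windows are shown for the 4 members with the largest called deficits in Purkinje cells. Of these Sema3e, Plxnc1 and Plxna2 had lower group means at Stellate/Basket P56 than at P14 to P35, while Sema6d was lowest at P14 (7.53) and highest at P56 (10.77). Sequences are from RefSeq, build GRCm38.p6, in which 26 of the 31 members and all 8 called members have an entry. Only bases before the annotated gene are printed, on the gene's strand: Sema3e at chr5:14025026-14025275 (plus strand), Sema6d at chr2:124089719-124089942 (plus strand), Plxnc1 at chr10:94945016-94945095 (minus strand), Plxna2 at chr1:194619579-194619790 (plus strand).
Sema3e: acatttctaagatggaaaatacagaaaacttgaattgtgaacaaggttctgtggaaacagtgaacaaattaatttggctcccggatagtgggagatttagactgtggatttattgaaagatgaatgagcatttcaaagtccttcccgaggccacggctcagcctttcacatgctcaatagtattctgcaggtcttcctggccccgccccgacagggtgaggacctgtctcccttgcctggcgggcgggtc
Sema6d: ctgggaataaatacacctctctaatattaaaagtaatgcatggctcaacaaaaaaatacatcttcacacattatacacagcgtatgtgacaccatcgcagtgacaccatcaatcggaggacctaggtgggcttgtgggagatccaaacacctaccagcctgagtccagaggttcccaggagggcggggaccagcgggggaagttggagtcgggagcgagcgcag
Plxnc1: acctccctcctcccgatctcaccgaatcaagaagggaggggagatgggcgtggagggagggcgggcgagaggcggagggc
Plxna2: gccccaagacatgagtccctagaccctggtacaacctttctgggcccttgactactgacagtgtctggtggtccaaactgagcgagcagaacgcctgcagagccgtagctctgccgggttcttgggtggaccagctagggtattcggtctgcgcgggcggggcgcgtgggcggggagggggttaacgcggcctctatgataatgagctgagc
The windows of 300 bases (250 before and 50 after a start) of the 8 called members were searched on both strands for the letters AGGTCA (a nuclear receptor site of the kind bound by ROR alpha), CAGCTG (an E-box of PTF1A complexes) and the paired EBF and NFI sites, which would have been set in capitals. These occur in 16.3%, 16.3%, 0.904% and 0.0365% of all 32851 promoter windows. None of the 4 printed stretches holds any of them, and 6 of the 8 called members hold none in any window. Sema7a has 1 CAGCTG and Plxnb2 has 1 AGGTCA. The windows of 3 of the 8, Sema3a, Sema7a and Plxnb2, lie inside the annotated gene and are not printed.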

How the data were processed

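Expression in hand-sorted cells was analysed from 42 deposited columns. What the authors deposited is a normalized log2 value for each probe set and array. GCRMA and R 2.9.1 appear in the submitters' processing notes, with no role or order. Of these columns 2, Stellate/Basket P35 replicate 3 and P56 replicate 2, equal the mean of the other columns of their group in every probe set, within 1e-08, and were left out, so 40 arrays were used. The number of arrays limits the precision.

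Probe sets with 1 gene symbol were kept (34958, while 932 carry several and 9211 none), the brightest probe set on average stood for each gene, and genes above log2 5 in at least 3 arrays were tested, 17478 of 18194. No further scaling was applied. The fit used limma 3.58.1 in R 4.3.3 with 1 mean for each of the 12 groups, without a replicate block, and Benjamini-Hochberg adjustment over all genes within each comparison. F tests were called on adjusted p under 0.05 alone. The p-values and standard errors rest on 1 spread per gene, shared by all 12 groups. For the Stellate/Basket groups with 2 arrays they do not measure how far those 2 arrays vary. The procedure was tested on simulated data: for the averaged cell type difference, among 17478 genes with 200 changed, it recovered 100% of those changed by 1.5. At the same size it recovered 86% for the cell type difference at P14, at P35 and for Purkinje P14 to P56, 88% for Purkinje P7 to P14 and 68% for the difference between changes, with at most 9 false calls in a comparison. The simulated noise was independent between arrays and equally wide in every group, with no mixture of cell types. These rates therefore do not cover groups such as Stellate/Basket P56, whose arrays correlated at 0.853. Plots used matplotlib 3.10.9 in Python 3.11.15.

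All members were accounted for, array values were given for members called in the averaged difference, in Purkinje P3 to P56 or in Stellate/Basket P14 to P28, and the 4 largest called partners were named in the first 2 of these. Probe sets other than the one shown, the P56 and P35 details and the Sema4f and Plxnb1 probe sets were added after their values were seen. Members and lists were chosen with earlier results of these data known. The step from P7 to P14 was chosen as the one at which the arrays labelled Purkinje changed most in those results. Replicate numbers do not pair the arrays: deviations of same-numbered arrays correlated at -0.0119 on average over 191 pairs.

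Alternatives covered the filter, the summary of probe sets, variance models, array weights, the replicate block, centring and quantile normalization, thresholds, the arrays fitted and leaving out each array. After the data were seen, covariates for Xist and for each array's 90th percentile were tried, and P35 was used as the final age. Values with the Xist covariate are not given here.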

Additional observations from a re-analysis of the deposited data

Results flagged for a closer look

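Single arrays stood apart from the others of their group in 13 of 186 pairs of member and group of 4 arrays, 6.99%, where chance alone sets apart about 1 in 20. In Purkinje cells these were Sema3e at P21 (replicate 1 at 7.79, the others 6.36 to 6.58), Plxna1 at P21 (replicate 1 at 6.73, the others 6.52 to 6.55), Nrp1 at P21 (replicate 4 at 6.03, the others 5.63 to 5.67), Sema5a at P28 (replicate 2 at 5.65, the others 5.43), Sema7a at P28 (replicate 2 at 10.5, the others 10.9), Plxnb2 at P35 (replicate 4 at 6.99, the others 6.60 to 6.64), Sema3d at P56 (replicate 2 at 5.31, the others 4.72 to 4.78) and Plxna2 at P56 (replicate 4 at 6.29, the others 6.46 to 6.49). In Stellate/Basket cells they were Sema3c at P14 (replicate 3 at 5.81, the others 5.54 to 5.57), Sema5a at P14 (replicate 4 at 5.53, the others 5.20 to 5.24), Sema6a at P28 (replicate 3 at 6.69, the others 6.61 to 6.62), Sema6c at P28 (replicate 2 at 8.01, the others 8.29 to 8.31) and Plxnb3 at P28 (replicate 3 at 7.00, the others 5.93 to 6.04).

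The change from P14 to P28 differed between the cell types, by the test of that difference in the limma fit, for Sema6d (-3.49), Sema7a (1.36) and Plxnd1 (1.24).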

How the results depend on the processing

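Directions of called members held under centring and quantile normalization. Over the 86 called member values, 5059 values in other settings comprised 4860 that kept the call, 193 that lost it and 6 that turned. The averaged cell type difference called 8 members when single arrays were left out (8 to 8), 25 with no minimum difference and 4 at a minimum of 2. The share of all genes called in each setting is not given here. These counts, those below and the counts in other settings given in the Results therefore show only how the calls depend on the settings. With no minimum the counts were 13 at P21, 17 at P28, 20 at P56, 11 for Purkinje P7 to P14, 6 for P14 to P56, and 6 and 14 for Stellate/Basket P14 to P28 and P14 to P56. At a minimum of 2 they were 3 at P14, 4 at P21, 3 at P35, 3 at P56, 3 for Purkinje P3 to P56, 3 for P7 to P14, 0 for P14 to P56, 0 for P14 to P28, 1 and 4 for Stellate/Basket P14 to P28 and P14 to P56, and 1 for the difference between changes. The mean of probe sets gave 5 at P21, 6 for Purkinje P3 to P56, 0 for P14 to P56 and P14 to P28 and 3 for Stellate/Basket P14 to P56. The probe set with the largest variance and the fit of every probe set each gave 6 for Stellate/Basket P14 to P28 and 5 for the difference between changes, and the latter 14 for Stellate/Basket P14 to P56. Array weights gave 4 at P56, and for Stellate/Basket cells 5 over P14 to P56, the 90th percentile as a covariate 6 at P56, P35 as the last age 4 for Stellate/Basket P14 to P56, and quantile normalization or an adjusted p under 0.01 gave 0 for Purkinje P14 to P56. Leaving out single arrays gave 7 to 11 at P14, 8 to 9 at P21, 8 to 10 at P28, 6 to 9 at P35, 5 to 12 at P56, 10 to 11 for Purkinje P3 to P56, 6 to 7 for P7 to P14, 0 to 1 for P14 to P56, 0 to 1 for P14 to P28, 2 to 2 for Stellate/Basket P14 to P28, 8 to 11 for P14 to P56, 2 to 4 for the difference between changes, and 18 to 22 and 15 to 16 for the F tests. The largest-variance probe set reversed Sema6a at P14 (-1.44), in Purkinje P7 to P14 (-1.13) and in Stellate/Basket P14 to P56 (-2.17), Sema4f at P21 (1.70) and in Stellate/Basket P14 to P28 (-1.45), and Sema4a in Stellate/Basket P14 to P28 (1.02) and P14 to P56 (0.0741). Also reversed were Stellate/Basket changes of Sema3e (0.571) and Sema7a (-0.013) with P35 as the last age, of Nrp1 without P56 replicate 1 (-0.267, and 2.72 without replicate 3) and of Sema4g without P56 replicate 3 (0.00611, and -2.27 without replicate 1), and Sema4g at P56 without replicate 3 (-0.103, and 2.18 without replicate 1). Except where a reversal comes from another probe set or age, the cause was not tested. Scaling moved the share of higher calls over all genes from 71.7% to 58.9% at P56 (quantile), from 77% to 89.2% for Purkinje P14 to P56 (centring) and from 34.5% to 45.0% for Stellate/Basket P14 to P56 (quantile). Centring moved the median of all genes from -0.0855 to 0.0624 at P56 and from -0.0731 to 0.0432 for Purkinje P14 to P56. With the replicate block the counts were 8 for the average, 10, 8, 8, 9 and 8 at P14, P21, P28, P35 and P56, 10, 6, 1 and 1 for Purkinje P3 to P56, P7 to P14, P14 to P56 and P14 to P28, 2 and 9 for Stellate/Basket P14 to P28 and P14 to P56, and 3 for the difference between changes. Values near the array medians limit what the dim members can show.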
